A study of Sus scrofa with 13 samples.

Results

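The RNAs described here are the well expressed rows that the deposited annotation types as long noncoding RNA (lncRNA) in veins of pigs with arteriovenous fistulas, surgical joins of an artery to a vein. They were chosen by level: of 30477 rows in the table, 6265 were typed lncRNA on chromosomes 1 to 18, and 231 of these (3.69%) had a mean of 2 RPKM or more over all 13 libraries. RPKM counts reads per transcript length and library size, so levels of different rows can be compared. The choice rests on the mean over both groups, and levels are therefore given as a description with no test.

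Veins of 8 pigs treated with 1,25 NP (PLGA+Hydrogel with nanoparticles that hold 1α,25-dihydroxyvitamin D3, the active hormone) are compared with veins of 5 vehicle pigs, which received PLGA+Hydrogel alone. Both groups thus share the polymer, known as PLGA, and the gel. The column headers give 3 females and 5 males in 1,25 NP, and 3 females and 2 males in vehicle. The sources used here give no age, breed or time of harvest. The labels name the tissue only as vein, and their treatment text describes a mouse antibody experiment, which the pig organism and identifiers contradict. Libraries are named by group and animal code.

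An lncRNA is a transcript longer than a small RNA with no known protein product. Some act in the nucleus, where they hold proteins together or guide chromatin factors, and some are mainly the precursors from which small nucleolar RNAs (snoRNAs) or microRNAs are cut. Many lie close to a protein-coding gene, and their level often follows that of the neighbour, so nearby coding genes are a common frame for describing them.

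The label lncRNA went against another annotation for some of the 231 rows. None of the 231 had a name in the file. For 19 (8.23%) a reference table of identifiers gave a symbol, and RefSeq types 17 of these 19 symbols as protein-coding; C18orf32 and C22orf39 were not in the RefSeq table. Among the 6034 other lncRNA rows 23 (0.381%) had a symbol. The 17 include HDLBP, an RNA-binding protein, GNG12, a G protein subunit, COTL1, an actin-binding protein, TANK, an adaptor of NF-kappaB signalling, NDUFA7, a subunit of respiratory complex I, TIMM13, a mitochondrial chaperone, and TWIST2, a transcription factor of mesenchyme. They are called here by symbol as lncRNA-typed rows, and the 19 rows held 3.53% of the summed mean RPKM of the 231. None of the 25 names and name families of known lncRNAs that were looked for, H19, MEG3 and GAS5 among them, was attached to any of the 231.

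Library totals, recovered from the values as reads on genes, ran from 36052819 to 50271231 in 1,25 NP and from 30261776 to 49818479 in vehicle. The 231 rows took 0.717% to 2.66% of reads in 1,25 NP (median 1.86%) and 1.09% to 3.01% in vehicle (median 1.85%). Every row was above 0 in every library and passed the filter of the test, more than 0.5 RPKM in at least 5 libraries. The lowest count of any row in a library was 8 reads, and the median over rows and libraries was 638. 1,25 NP library P28 stood apart: it had the lowest value of the 13 libraries for 118 of the 231 rows, 0.717% of reads on them, and 119 rows of 2 RPKM or more, against 175 to 210 in the other 7 1,25 NP libraries and 170 to 216 in vehicle. This was not particular to these rows. The median log2 deviation of P28 was -0.52 over all genes tested and -0.70 over the 231. It also had the fewest genes above 0.5 RPKM, 12970, where the median of the 13 libraries was 13922. Vehicle library P15 had the highest value for 67 rows and vehicle library P17 for 44. The markers of contractile smooth muscle (7 of 7 above a mean of 0.5 RPKM), fibroblasts (7 of 7) and endothelium (6 of 6) were present, and 0 of 6 skeletal muscle markers in the table reached that level.

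**Figure D1:**
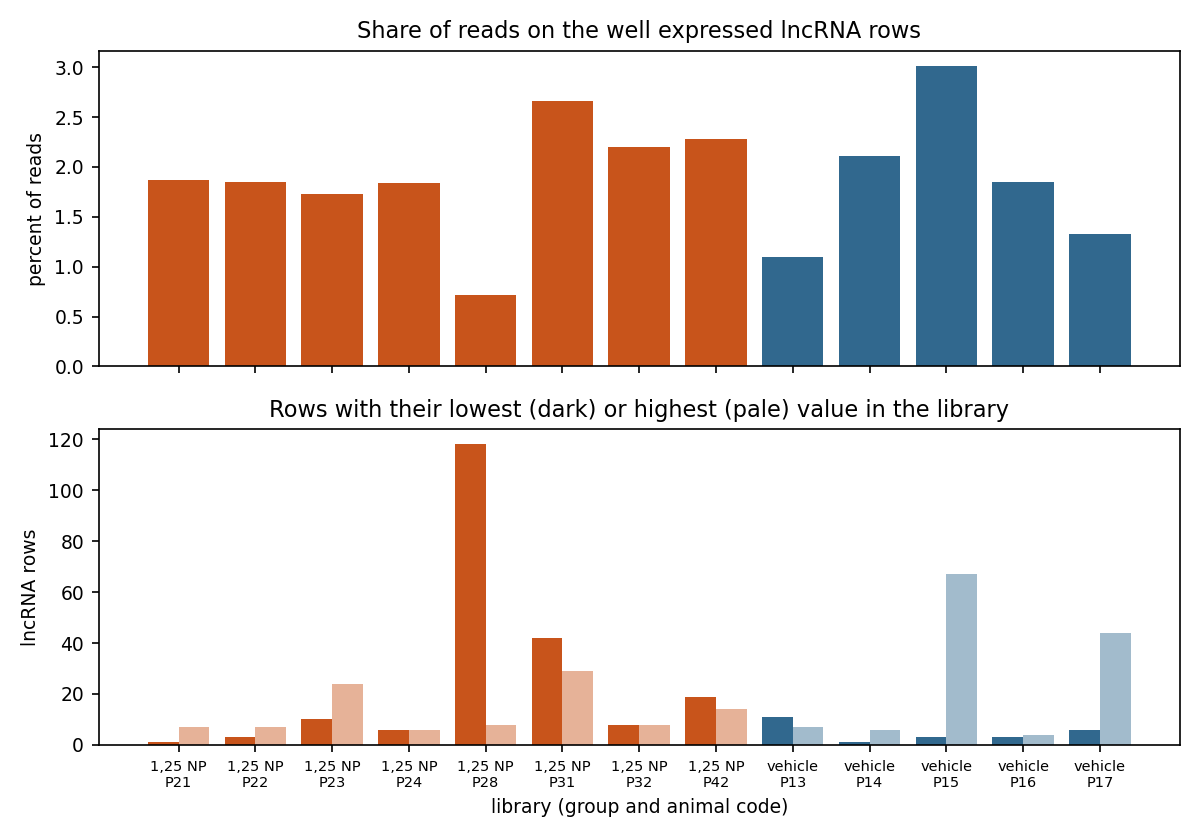
Share of reads on the 231 lncRNA-typed rows (upper panel, percent of each library's reads) and number of rows with their lowest (dark bars) or highest (pale bars) value in each library (lower panel), for the 8 1,25 NP libraries (orange) and the 5 vehicle libraries (blue). 1,25 NP library P28 had the smallest share, 0.717%, and was lowest for 118 rows, while vehicle library P15 was highest for 67. Library P28 was low over all genes tested as well (median log2 deviation -0.52).

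The levels were dominated by a single row. ENSSSCG00000048856 averaged 2815 RPKM, 64.6% of the summed mean RPKM of all 231, and took between 0.245% and 2.15% of all reads of a library. By the file, which names no genome build, it lies on chromosome 2 at 6752140 to 6757157. In 1,25 NP it had 557 RPKM in library P28 and a median of 2763, with 4352 at most, against 1209, 3179, 4872, 2758 and 1389 RPKM in vehicle libraries P13, P14, P15, P16 and P17. The groups overlapped over nearly the whole range, and the mean was 2898 ± 1140.2 RPKM in 1,25 NP (SD, n = 8) and 2682 ± 1491 in vehicle (SD, n = 5). Vehicle values below are given in the same order of libraries.

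The second row, ENSSSCG00000044913 (chromosome 2, 6797358 to 6803782), lies 19184 bases from FRMD8 and averaged 201 RPKM. It had 113 to 389 RPKM in 1,25 NP with a median of 162, against 94.7, 212, 322, 292 and 209 RPKM in vehicle. The patterns of the 2 rows over the libraries differed. The symbols whose log2 values followed ENSSSCG00000048856 most closely among 9228 named coding genes were PELI1, a ubiquitin ligase of immune signalling, L3MBTL3 and YTHDC1, a nuclear reader of RNA methylation, with Pearson r of 0.98, 0.97 and 0.97 over 13 libraries. For ENSSSCG00000044913 the closest were TPST1, CRCP and SMYD3, at 0.75, 0.74 and 0.73.

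Below these 2 rows the levels fell off quickly. Of the 231, 27 averaged 10 RPKM or more, 45 from 5 to under 10 and 159 from 2 to under 5, with a median of 3.69 RPKM. The median of the 9637 protein-coding rows chosen by the same mean was 7.57 RPKM. Only 78 of the 231 were at 2 RPKM or more in every library. Just inside the threshold stood ENSSSCG00000047948 at 2.02 and ENSSSCG00000045730 at 2.01 RPKM, and just outside it ENSSSCG00000042400 and ENSSSCG00000041371, both at 1.98 RPKM. Of the 6034 other lncRNA rows on these chromosomes, 782 were at 0 in every library.

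The third row by level was ENSSSCG00000044572 (chromosome 7, 23932542 to 23935874), 4346 bases from a heat shock protein gene named HSP70.2. It had 24.9 to 53.0 RPKM in 1,25 NP with a median of 42.4, against 30.9, 40.7, 62.6, 57.1 and 41.6 RPKM in vehicle. ENSSSCG00000042706, 656 bases from the ubiquitin ligase gene DTX4, was more uneven: 11.5 to 78.6 RPKM in 1,25 NP, with a median of 38.5, against 19.8, 37.5, 18.9, 55.7 and 26.5 RPKM in vehicle. In 1,25 NP its values in libraries P24, P31 and P32, at 75.9, 78.6 and 58.7 RPKM, lay above the highest vehicle value. DTX4 itself had 3.65 ± 1.64 RPKM in 1,25 NP (SD, n = 8) and 6.13 ± 2.05 in vehicle (SD, n = 5), a log2 difference of -0.70 (SE 0.30). The coding genes closest in pattern were PLXNC1, a semaphorin receptor, VMP1, a protein of autophagy, and CTSC, a lysosomal protease, at r of 0.94 for each.

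The lncRNA-typed HDLBP row had 12.2 to 70.9 RPKM in 1,25 NP with a median of 31.9, against 68.6, 30.2, 18.5, 31.1 and 46.9 RPKM in vehicle. Its highest value in 1,25 NP was in library P28, where most other rows were lowest. The GNG12 row had 22.9 to 56.4 RPKM in 1,25 NP with a median of 38.5, against 16.8, 33.7, 44.4, 26.1 and 31.2 RPKM in vehicle. ENSSSCG00000046054 had 15.4 to 56.9 RPKM in 1,25 NP with a median of 30.4, against 22.6, 30.0, 65.9, 18.2 and 64.2 RPKM in vehicle, so its vehicle libraries formed a high pair and a low trio. Its nearest coding gene, GNGT1, was almost silent, at 0.00630 ± 0.00879 RPKM in 1,25 NP (SD, n = 8) and 0.00917 ± 0.00944 in vehicle (SD, n = 5). ENSSSCG00000042386, ENSSSCG00000036379 and ENSSSCG00000046461 completed the first 10, with means of 28.1, 27.3 and 26.4 RPKM. ENSSSCG00000036379 was the most uneven of these 3, at 7.23 to 41.2 RPKM in 1,25 NP and 38.5, 64.7, 30.1, 32.7 and 6.51 RPKM in vehicle.

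**Figure D2:**
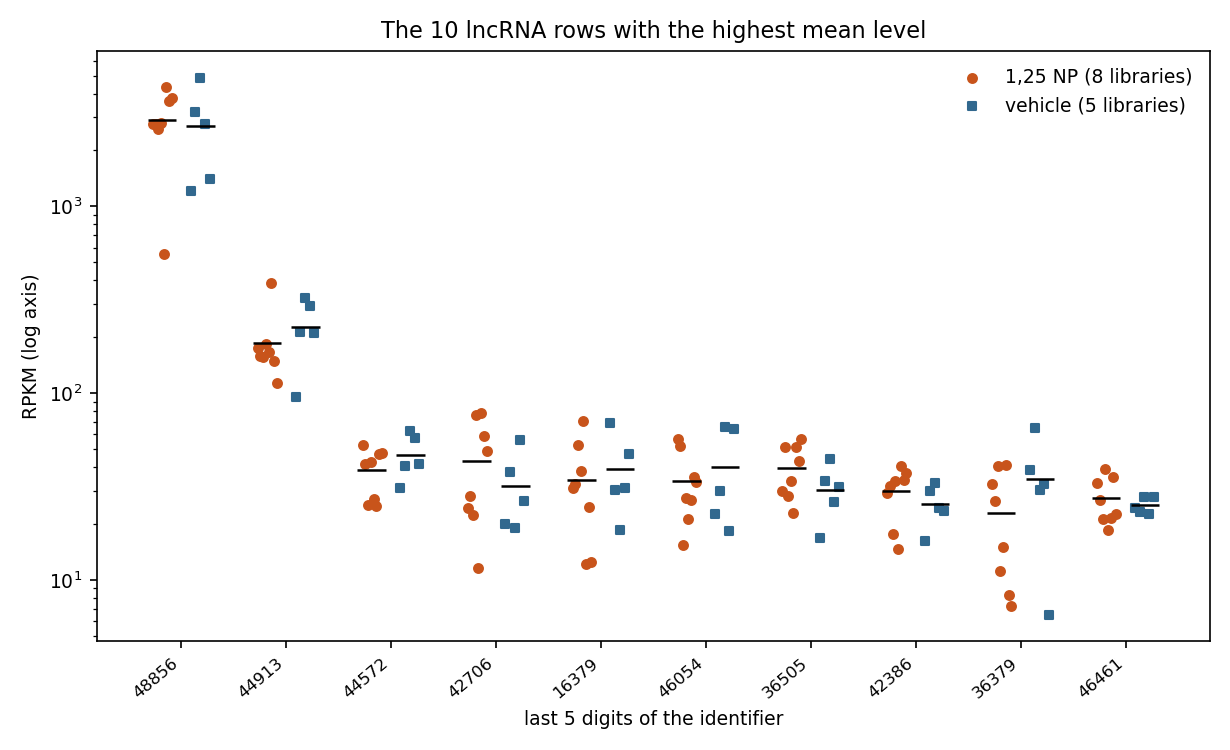
RPKM (log axis) of the 10 lncRNA-typed rows with the highest mean, labelled by the last digits of the identifier. Each point is a library, 1,25 NP as orange circles and vehicle as blue squares, and black lines are group means. ENSSSCG00000048856 stands at 557 to 4352 RPKM in 1,25 NP and 1209 to 4872 RPKM in vehicle, and the groups overlap for all 10.

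By position the 231 rows were intergenic in the sense of the file: 0 overlapped a protein-coding row by start and end, nor did any of the 6265 lncRNA rows on these chromosomes, while 6994 of 19328 protein-coding rows overlapped another. Their median distance to the nearest coding row was 15362 bases, against 28970.5 bases for the other lncRNA rows. The nearest coding row was under 1 kb away for 50 rows, 1 to 10 kb for 57, 10 to 100 kb for 89 and over 100 kb for 35. The median transcript length was 3933 bases, against 2849 bases for the other lncRNA rows. Of the 231, 111 overlapped another lncRNA row, so their reads may be shared with it, since no source used here gives the strand setting of the counting.

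Small RNA rows lay inside 18 of the 231. snoRNA or scaRNA rows, which guide chemical modification of ribosomal and spliceosomal RNA and are usually cut from introns of a host transcript, lay inside 13 (5.63%), against 12 of the 6034 other lncRNA rows (0.199%). Of the 27 rows of 10 RPKM or more, 7 were such hosts. ENSSSCG00000043175, 222 bases from the amino acid transporter subunit gene SLC3A2, held 8 rows, named SNORD22, SNORD26, SNORD27, SNORD28, SNORD29, SNORD30 and SNORD31. The host averaged 20.2 RPKM, and the pair of SNORD22 rows inside it 7003 and 911 RPKM. ENSSSCG00000046461, 12 bases from LRRC75A, held SNORD49A, SNORD49B and SNORD65, at 40.9, 17.1 and 32.2 RPKM beside 26.4 for the host. ENSSSCG00000044572 held SNORD48, SNORD52 and 1 further snoRNA row. ENSSSCG00000041401, at 7.23 RPKM, held a pair of SNORA73 rows at 4444 and 5550.2 RPKM.

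MicroRNA rows lay inside 3 of the 231. ENSSSCG00000050772 held ssc-let-7a-1, ssc-mir-100 and ssc-mir-125b-1, at 15.4, 11 and 20.9 RPKM beside 7.74 for the host. ENSSSCG00000041959, between AK4 and JAK1, held ssc-mir-101-2, at 5.61 RPKM beside 8.87 for the host. ENSSSCG00000047853 held ssc-mir-1839 and the scaRNA SCARNA15. Total RNA entered the library kit, and RPKM of rows this short rests on few bases. These levels are reads over the annotated rows and are not taken as levels of the mature microRNA, which was not measured apart.

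Between 1,25 NP and vehicle none of the 231 rows passed the test. limma, a linear model with a shared estimate of spread, was fitted to log2(RPKM + 0.5) of all 14579 genes that passed the filter and called 0 genes at an adjusted p under 0.05 (background 0% of genes called), with a smallest adjusted p of 0.795. Among the 231, 161 were lower and 70 higher in 1,25 NP, with a median log2 difference of -0.18. Over all genes tested 56.2% were lower, with a median of -0.07, and over the 586 other lncRNA rows that passed the filter 72.4% were lower, with a median of -0.16. Of the protein-coding genes of 2 RPKM or more 54.7% were lower, with a median of -0.06. At an unadjusted p under 0.05, 34 of the 231 (14.7%) were lower, where 3.21% of all genes tested were, and 1 was higher, where 0.803% were. Among the other lncRNA rows 5.29% were lower and 0.171% higher by the same p, and among protein-coding genes of 2 RPKM or more 2.68% were lower and 0.613% higher. The choice of rows bears on this count, because the mean over both groups also admits a row that reaches 2 RPKM in 1 group alone, and such a row differs by construction. Of the 231, 196 had a mean of 2 RPKM or more in each group, 11 in 1,25 NP alone and 24 in vehicle alone. Among the 196, 23 (11.7%) were lower and 1 higher at an unadjusted p under 0.05, and the other 11 lower rows came from the 24 that entered through vehicle alone. The protein-coding genes of 2 RPKM or more were chosen by the same mean, while all genes tested were not.

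The 34 are not separate measurements, since neighbouring rows moved together, as described below. No row had all 1,25 NP libraries on one side of all vehicle libraries, where 0.0823% of all genes tested lay wholly below and 0.0137% wholly above. Among the protein-coding genes of 2 RPKM or more these shares were 0.114% and 0.0104%, and among the other lncRNA rows 0%. In 26 of the 34 rows all 8 1,25 NP libraries were below the vehicle mean, and at least 6 were in the rest. The 34 were chosen for their difference in these same libraries, so this count describes them and adds no support. Vehicle library P17 was the highest of all libraries for 18 of the 34 and P15 for 10, while 1,25 NP libraries P31 and P28 were lowest for 17 and 12. The count was 22, with a background of 2.09%, without vehicle library P17, where 21 of the 34 remained. Without 1,25 NP library P28 it was 28, with a background of 8.75%, and 7 rows were higher, with a background of 6.43%. In the model with sex as a covariate 23 rows were lower and 2 higher, with backgrounds of 3.18% and 0.61%. With median-of-ratios scaling of the libraries 26 rows were lower and 2 higher, while over all genes 253 (1.74%) were lower and 483 (3.31%) higher, against 468 lower and 117 higher in RPKM as deposited.

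The authors' deposited table gives 34 of the 231 rows a p under 0.05 with a ratio below 1, where 3.67% of all genes with a p in the authors' deposited table are, and 0 rows with a ratio above 1. Of these 34, 30 are among the 34 lower rows here. Markers of some other cell types also had different, though overlapping, ranges in the groups. The group ranges of the remaining lists are not given here. The summed RPKM of the proliferating cell markers (6 of 6 in the table detected) was 7.26 to 119 in 1,25 NP (median 52.8) and 9.11 to 31.6 in vehicle (median 13.2). The sum of the nerve and Schwann cell markers (6 of 6) was 6.22 to 22.2 in 1,25 NP (median 14.8) and 14.5 to 359 in vehicle (median 24.2). The erythrocyte sum (4 of 5) was 5.80 to 68.9 in 1,25 NP and 18.2 to 4401 in vehicle. Their part in the lncRNA values was not tested. In whole tissue, fewer cells of a type and less RNA per cell cannot be told apart.

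**Figure D3:**
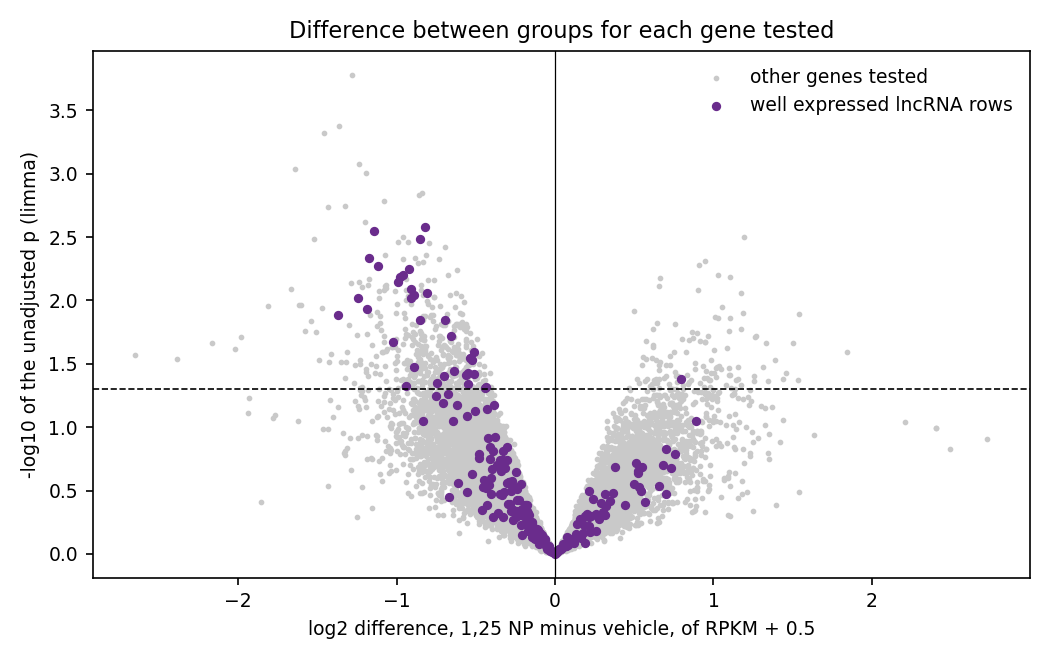
Log2 difference, 1,25 NP minus vehicle, of RPKM + 0.5 against −log10 of the unadjusted limma p for all 14579 genes tested (grey) and the 231 lncRNA-typed rows (purple). The dashed line marks a p of 0.05. Of the 231, 34 lie above it on the lower side and 1 on the higher side, and none passes after adjustment.

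The smallest p among the 231 belonged to ENSSSCG00000043969 (chromosome 13, 22869492 to 22872478), 4317 bases from PLCD1, a phospholipase C. Like the next row described, it entered through its vehicle mean alone. It had 0.919 to 3.30 RPKM in 1,25 NP with a median of 1.70, against 3.33, 3.14, 3.35, 3.12 and 4.53 RPKM in vehicle. The value of 3.30 in 1,25 NP library P22 lay within the vehicle range, and the other 7 lay below it. The log2 difference was -0.82 (SE 0.23, limma adjusted p = 0.795). Coding genes closest to it in pattern were SLC9A8, PPIP5K1 and GABARAPL1, an autophagy protein, at r of 0.92, 0.92 and 0.91.

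ENSSSCG00000044618 (chromosome 11, 78896520 to 78901071) lies 15248 bases from GAS6, the ligand of the TAM receptor kinases. It had 0.623 to 2.60 RPKM in 1,25 NP with a median of 1.65, against 7.18, 4.26, 3.24, 2.99 and 2.41 RPKM in vehicle. Again 7 of 8 1,25 NP libraries lay below the lowest vehicle value. The log2 difference was -1.14 (SE 0.32, limma adjusted p = 0.795). GAS6 itself had 14.9 ± 14.8 RPKM in 1,25 NP (SD, n = 8) and 18.5 ± 10.9 in vehicle (SD, n = 5), a log2 difference of -0.66 (SE 0.57). The closest coding genes in pattern were TAL1, a transcription factor of blood and endothelium, CERS4 and PLCG1, at r of 0.93, 0.92 and 0.90.

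Among the 17 rows with a protein-coding symbol, TIMM13 was the one with a p under 0.05. It had 2.30 to 4.33 RPKM in 1,25 NP with a median of 3.44, against 3.65, 4.50, 5.29, 5.26 and 4.12 RPKM in vehicle, and 6 of 8 1,25 NP values lay below all vehicle values. Its log2 difference was -0.44 (SE 0.20, limma adjusted p = 0.795). The NDUFA7 row had the smallest spread of all 231 over the 13 libraries, an SD of 0.23 on the log2 scale, at 3.81 to 5.72 RPKM in 1,25 NP and 5.02, 5.21, 5.08, 7.16 and 7.94 RPKM in vehicle. The 19 rows with a symbol had a median difference of -0.04, with 8 higher and 11 lower, and the 212 without one -0.18, with 62 higher and 150 lower.

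Some of the 34 lower rows neighbour each other. Counting rows with a gap of at most 20 kb and no coding row between them as 1 locus, a grouping chosen after the values were seen, gave 189 loci, of which 24 held 2 to 6 rows, 66 rows in all. Within these 24 the median r between rows over libraries had a median of 0.92, with a range of -0.34 to 0.99. Rows of a locus may be pieces of 1 transcript or share reads where they overlap. The 34 lower rows fell into 25 of 189 loci (13.2%), a share near the 14.7% of rows. Of the 34, 14 were in loci of 2 or more rows, and 13 of these in 4 loci. The same grouping was not made for other genes.

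The locus between AK4, a mitochondrial adenylate kinase, and JAK1, a kinase of cytokine receptors, held 3 rows on chromosome 6, 147320283 to 147354875. A further row between these genes, ENSSSCG00000048106, lay more than 20 kb away and is not counted in the locus. Its log2 difference was -0.75, with an unadjusted limma p not under 0.05. ENSSSCG00000041959, the row that holds ssc-mir-101-2, had 2.44 to 12.5 RPKM in 1,25 NP with a median of 5.02, against 10.8, 9.86, 22, 8.78 and 15.8 RPKM in vehicle. Libraries P21 and P22, at 12.5 and 10.1 RPKM, were the ones of 1,25 NP within the vehicle range. ENSSSCG00000043666 had 2.13 to 8.56 RPKM in 1,25 NP with a median of 3.96, against 8.52, 7.63, 19, 5.42 and 13 RPKM in vehicle. The log2 differences of the 3 rows were between -1.17 and -0.99, with r of 0.98 to 0.99 between them (limma, adjusted p = 0.795 for each). AK4 had 9.01 ± 3.18 RPKM in 1,25 NP and 7.23 ± 1.69 in vehicle, and JAK1 66.2 ± 14 RPKM in 1,25 NP and 68.9 ± 13.8 in vehicle (SD, n = 8 and 5). Over the alternative settings the median difference of this locus ran from -1.30 to -0.81.

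The locus beside CD34, a surface protein of endothelium and progenitor cells, held 4 rows on chromosome 9, 134956226 to 135014175. ENSSSCG00000041612 had 1.41 to 3.63 RPKM in 1,25 NP with a median of 2.12, against 4.90, 3.84, 2.92, 4.83 and 6.56 RPKM in vehicle. ENSSSCG00000035996 had 1.23 to 7.36 RPKM in 1,25 NP with a median of 3.07, against 11.9, 4.79, 6.02, 5.58 and 16.1 RPKM in vehicle. The differences of the 4 rows were between -1.25 and -0.86, and those of the locus median between -1.24 and -0.85 over the settings. For all 4 rows library P31 was the lowest and library P28 the highest of 1,25 NP. ENSSSCG00000041966 and ENSSSCG00000041612 overlap each other. CD34 had 26.6 ± 16.4 RPKM in 1,25 NP (SD, n = 8) and 35.4 ± 13.3 in vehicle (SD, n = 5), a log2 difference of -0.64 (SE 0.49).

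The locus beside KATNAL1, a subunit of a microtubule-severing enzyme, held 3 rows on chromosome 11, 6943276 to 6981115. ENSSSCG00000043867, the highest of them, had 2.11 to 6.55 RPKM in 1,25 NP with a median of 2.95, against 6.98, 4.87, 8.33, 5.31 and 10.3 RPKM in vehicle. The differences of the 3 rows were between -0.96 and -0.81, and the locus median ran from -1.03 to -0.62 over the settings. KATNAL1 had 12.5 ± 2.64 RPKM in 1,25 NP (SD, n = 8) and 15.5 ± 5.29 in vehicle (SD, n = 5), a log2 difference of -0.28 (SE 0.25).

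The locus between MKLN1 and KLF14, a transcription factor, held 5 rows on chromosome 18, 17853313 to 18038162, of which 3 had a p under 0.05. ENSSSCG00000041983 had 3.26 to 9.09 RPKM in 1,25 NP with a median of 6.26, against 7.96, 8.75, 13.7, 8.71 and 12.8 RPKM in vehicle. The differences of the 5 rows were between -0.69 and -0.41, and the locus median ran from -0.66 to -0.31 over the settings. KLF14 was near silent, at 0.103 ± 0.0744 RPKM in 1,25 NP (SD, n = 8) and 0.0973 ± 0.0659 in vehicle (SD, n = 5). MKLN1 had 10.9 ± 4.50 RPKM in 1,25 NP (SD, n = 8) and 9.39 ± 5.71 in vehicle (SD, n = 5), a log2 difference of 0.25 (SE 0.43). Neither flank of these 4 loci had a p under 0.05 in any case where it was tested. Over all 34 lower rows the nearest coding genes numbered 26, of which 23 were tested, 3 were lower at an unadjusted p under 0.05, against a background of 3.21%, and 0 higher. Of the 23, 19 had a difference below 0, with a median of -0.40 where all genes tested had -0.07. These genes are neighbours of rows chosen for being lower in the same libraries. The well expressed rows had a median r of 0.50 with their nearest coding gene, so all genes tested are not a matched background here.

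**Figure D4:**
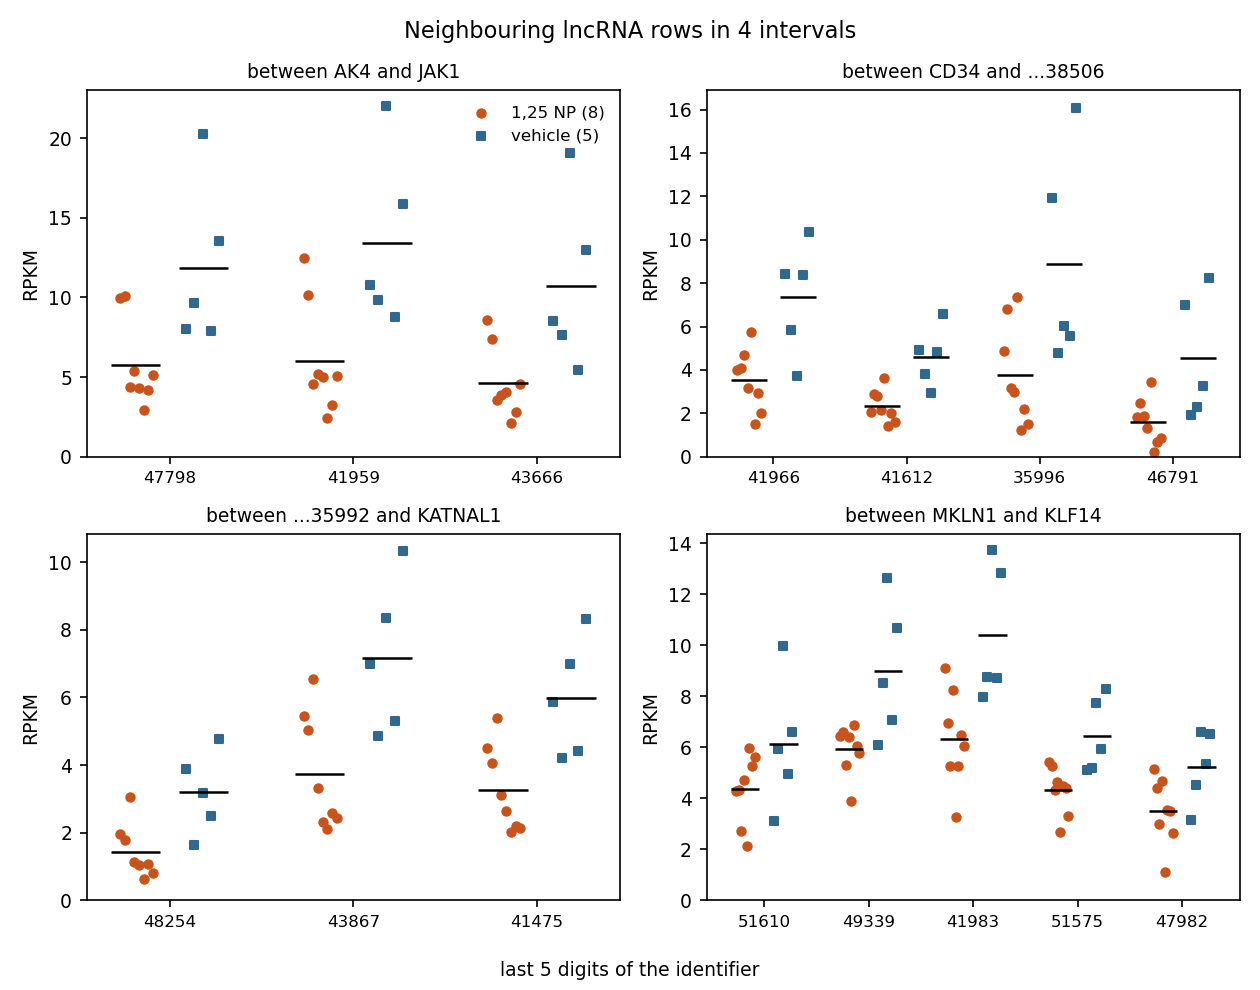
RPKM of neighbouring lncRNA-typed rows in the 4 loci, joined at gaps of at most 20 kb, that hold 2 or more of the 34 lower rows. Lower rows have an unadjusted p under 0.05. There is 1 column of points per row, labelled by the last digits of the identifier. Each point is a library, 1,25 NP as orange circles and vehicle as blue squares, and black lines are group means. In each locus the 1,25 NP means lie below the vehicle means while single libraries overlap.

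The lower rows outside these loci included the one with the largest difference, ENSSSCG00000049407, 7261 bases from APOBEC3B, an antiviral cytidine deaminase. It had 0.136 to 5.87 RPKM in 1,25 NP with a median of 0.824, against 4.79, 2.42, 3.27, 2.41 and 7.98 RPKM in vehicle, a log2 difference of -1.37 (SE 0.49). Its highest 1,25 NP value was in library P28. This row too entered through its vehicle mean alone, and it was named after its value was seen. Between INHBA and SUGCT lay ENSSSCG00000046901 and ENSSSCG00000043613, both among the 34, each with a log2 difference of -0.89. They are more than 20 kb apart and so count as separate loci. By distance, 18 of the 34 were among the 89 rows at 10 to 100 kb from a coding row, 10 among the 57 at 1 to 10 kb, 3 among the 50 under 1 kb and 3 among the 35 beyond 100 kb.

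On the higher side 1 row had a p under 0.05, ENSSSCG00000045128 (chromosome 5, 14030331 to 14100627), 292 bases from CKAP4, a membrane protein of the endoplasmic reticulum. It had 2.03 to 10.6 RPKM in 1,25 NP with a median of 4.57, against 2.01, 4.54, 2.84, 2.53 and 2.49 RPKM in vehicle, and 4 of 8 1,25 NP libraries lay above the vehicle range. The log2 difference was 0.80 (SE 0.36, limma adjusted p = 0.795). CKAP4 had 39.2 ± 17 RPKM in 1,25 NP (SD, n = 8) and 26.5 ± 8.60 in vehicle (SD, n = 5). Coding genes closest to the row in pattern were METTL21A, DSE and SLC35B4, at r of 0.95, 0.95 and 0.94.

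ENSSSCG00000048661 (chromosome 2, 91230738 to 91358164), 235 bases from VCAN, the matrix proteoglycan versican, holds the row SCARNA18. It had 1.25 to 16.2 RPKM in 1,25 NP with a median of 7.37, against 1.75, 5.45, 4.72, 3.26 and 2.05 RPKM in vehicle. Of the 1,25 NP libraries 6 lay above all vehicle values and library P28 lay below them. The log2 difference was 0.89 (SE 0.49, limma adjusted p = 0.795). VCAN had 110.1 ± 49.1 RPKM in 1,25 NP (SD, n = 8) and 61.6 ± 16.8 in vehicle (SD, n = 5). The closest coding genes in pattern were ARF4, a GTPase of vesicle traffic, GPR180 and TWF1, at r of 0.99 for each.

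The next 3 by p were ENSSSCG00000044208 near PANK2, the lncRNA-typed GPRIN3 row and ENSSSCG00000044265 near REXO2, with log2 differences of 0.70, 0.76 and 0.51. None of them had an unadjusted p under 0.05. For ENSSSCG00000044208 the 1,25 NP values ran from 0.175 in library P28 to 7.05 in library P31, against 0.546, 1.73, 1.89, 1.22 and 0.473 RPKM in vehicle. Library P28 was the lowest of 1,25 NP for 4 of the 5 higher rows named and P31 the highest for 4. The closest coding genes to ENSSSCG00000044208 were RAP2C, PLOD2, a collagen-modifying enzyme, and TMEM65, at r of 0.98, 0.97 and 0.97.

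The hosts of snoRNA or scaRNA rows did not lean one way. Of 13 hosts 7 were higher and 6 lower in 1,25 NP, with a median log2 difference of 0.08 and a range of -0.75 to 0.89, and 1 had an unadjusted p under 0.05. That host was ENSSSCG00000045200, which holds SNORD88B, SNORD88C and 2 further snoRNA rows. It had 1.64 to 8.11 RPKM in 1,25 NP with a median of 5.24, against 11.8, 6.54, 4.60, 7.10 and 11.7 RPKM in vehicle.

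By sex the median log2 difference of the 231 rows was -0.12 in females (3 1,25 NP, 3 vehicle), with 132 rows lower, and -0.19 in males (5 1,25 NP, 2 vehicle), with 172 lower. These are 57.1% of the rows in females and 74.5% in males, where 49.9% and 64.6% of all genes tested were lower. Over all genes tested the medians were 0.0011 in females and -0.10 in males. The interaction of sex and treatment called 0 of 14579 genes in limma (smallest adjusted p = 0.0606), with 425 genes and 8 of the 231 rows at an unadjusted p under 0.05.

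Proteins that handle lncRNAs were described from lists of other genes. Of 18 paraspeckle and nuclear lncRNA-binding proteins, all tested, 11 were higher and 7 lower in 1,25 NP (median log2 difference 0.21), and 0 had an unadjusted p under 0.05. SRSF1, a splicing factor, had 18.1 ± 8.95 RPKM in 1,25 NP and 10.8 ± 5.06 in vehicle (SD, n = 8 and 5). HNRNPM, another RNA-binding protein, had 36.9 ± 9.33 RPKM in 1,25 NP and 29.4 ± 5.34 in vehicle. Of 16 genes of nuclear RNA decay and 3 prime end processing, 10 were higher and 6 lower (median 0.15). The 3 with the smallest p, UPF1, EXOSC5 and PABPN1, were all lower, with UPF1, a helicase of nonsense-mediated decay, at 20.8 ± 4.08 RPKM in 1,25 NP and 25.6 ± 5.34 in vehicle. Of 8 tested genes of Polycomb and chromatin partners, 7 were higher and 1 lower (median 0.24), with EZH2, the histone methyltransferase, at 5.88 ± 2.85 RPKM in 1,25 NP and 3.99 ± 1.88 in vehicle. No gene of the 3 lists passed the test.

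Each lncRNA was then set beside its nearest protein-coding gene. Pearson r was computed on log2(RPKM + 0.5) over the 13 libraries for every lncRNA row on chromosomes 1 to 18 where both partners passed the filter, 697 pairs, with permutation p-values adjusted over the 697. Of the 231 rows 198 had such a partner, and for 33 the nearest coding gene did not pass. The correlation was positive and past an adjusted p of 0.05 for 77 of 198 pairs, where 37% of the 697 pairs were, and negative for 6, where 1.43% were. By Spearman's rho 56 positive and 6 negative pairs passed, and 58 passed by both measures. The positive and negative Pearson calls are 38.9% and 3.03% of the 198 pairs. The share of positive Pearson calls was thus close to that of all lncRNA pairs, and 6 of the 10 negative Pearson calls among the 697 were pairs of well expressed rows.

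The median r was 0.50 for the 198 pairs and 0.51 for 499 pairs of other lncRNA rows. It was 0.58 for 4316 protein-coding rows of 2 RPKM or more, each paired with its nearest coding row. Coding rows that overlap their nearest coding row were left out, and mutual neighbours can enter from both sides. The points of each pair share library, depth and animal. As a description of that setting, the median r of each of the 198 rows with all 12590 coding genes had a median of 0.15 and ran from -0.30 to 0.38. The median r was 0.55 for lncRNA rows under 1 kb from the coding gene, 0.53 at 1 to 10 kb, 0.47 at 10 to 100 kb and 0.49 beyond 100 kb. For these protein-coding pairs without overlap it was 0.69, 0.58, 0.47 and 0.45 over the same classes. Among 12590 coding genes the nearest one ranked first in r for 4 of the 198 rows, in the first 10 for 8 and in the first 100 for 18. No pair overlaps, so no overlapping pair could be described.

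**Figure D5:**
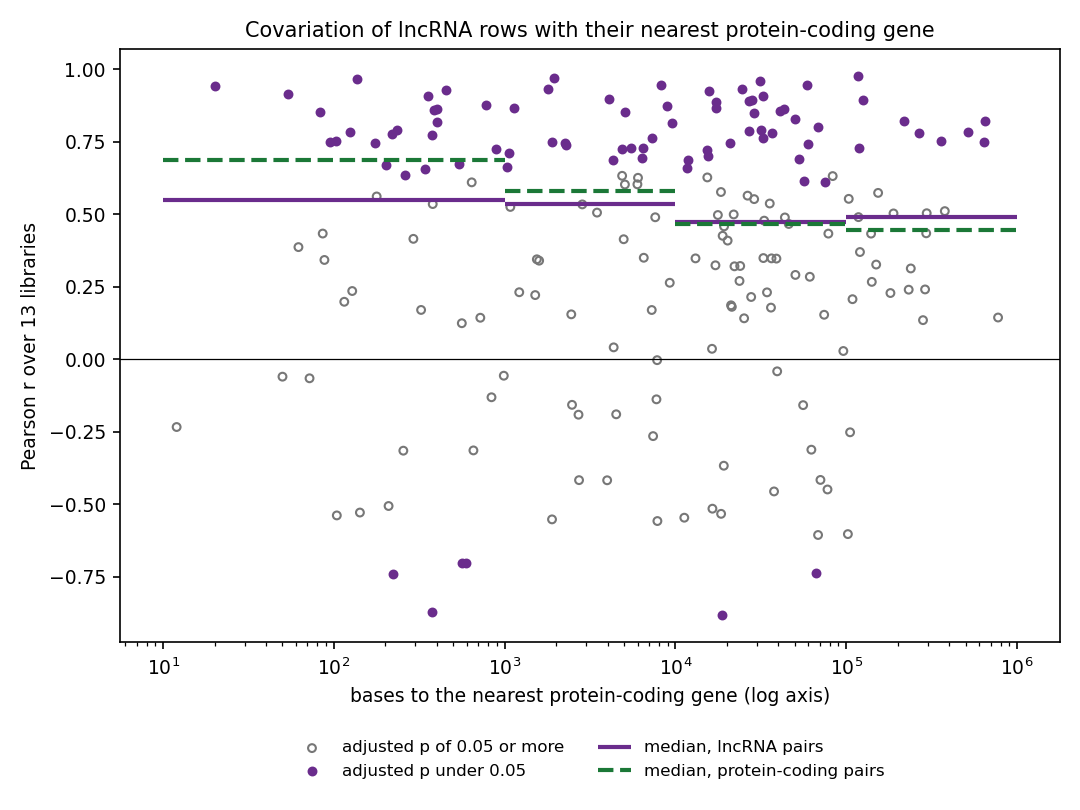
Pearson r over 13 libraries between 198 lncRNA-typed rows and their nearest protein-coding gene, against the distance between them in bases (log axis). Filled points have a permutation p under 0.05 after adjustment over 697 pairs. Horizontal lines are class medians, solid for lncRNA pairs (0.55, 0.53, 0.47 and 0.49) and dashed for protein-coding pairs that do not overlap (0.69, 0.58, 0.47 and 0.45).

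The highest r belonged to ENSSSCG00000049354 and the coding row ENSSSCG00000044299, 117027 bases apart on chromosome 5. Pearson r was 0.98 and Spearman's rho 0.97 (permutation p = 1e-05 for each, the smallest 100000 resamples can give, adjusted p = 0.000268 and 0.000536). The lncRNA had 0.309 to 13.8 RPKM in 1,25 NP with a median of 2.33, against 1.72, 3.76, 1.40, 1.12 and 0.352 RPKM in vehicle. Library P31 held the highest value. Without the 2 libraries farthest from the median r was 0.94, and over 1,25 NP alone 0.97. The neighbour ranked first among 12590 coding genes.

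ENSSSCG00000048553 lies 1944 bases from MAP3K2, a kinase of stress signalling (r = 0.97, rho = 0.97, adjusted p = 0.000268 by permutation). It had 2.79 to 20.8 RPKM in 1,25 NP with a median of 10.3, against 3.36, 10.2, 12.6, 8.00 and 4.01 RPKM in vehicle. ENSSSCG00000042179 lies 136 bases from DPY19L4 (r = 0.97, rho = 0.96). ENSSSCG00000044841, which holds SNORD50B, lies 31055 bases from SYNCRIP, an RNA-binding protein of the hnRNP family (r = 0.96, rho = 0.91). The TANK row lies 58583 bases from PSMD14, a deubiquitinase of the proteasome (r = 0.94, rho = 0.90), and ENSSSCG00000042402 lies 8278 bases from ENSSSCG00000045565 (r = 0.94, rho = 0.87). Among all coding genes MAP3K2 had rank 323 and PSMD14 rank 433 for their rows. Library P28 was the lowest 1,25 NP library for all 6 lncRNAs. Without the 2 farthest libraries r was between 0.77, for ENSSSCG00000042402, and 0.96.

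Among the negative pairs, ENSSSCG00000042386 and ITPRIPL2, 373 bases apart, had r of -0.87 and rho of -0.91 (adjusted p = 0.000634 and 0.00148 by permutation). ENSSSCG00000043175, the host of SNORD22, and SLC3A2 had r of -0.74 and rho of -0.85. That call was lost over 1,25 NP alone (r = -0.68, adjusted p = 0.144 by exact permutation) and without the 2 farthest libraries (r = -0.73, adjusted p = 0.0586 by permutation). Library P28 was the lowest 1,25 NP library for both lncRNAs.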

How the data were processed

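RNA-seq libraries came from 8 1,25 NP and 5 vehicle pigs; the TruSeq V2 kit took 0.5 µg of total RNA, per the labels' protocols. The authors deposited 1 value per gene and library with no unit in the header. These deposited values were taken as RPKM, because multiplying by length and library total gave whole reads for 100% of values within 0.001 reads. Library totals came from the smallest values of each library, so another scaling per gene length cannot be told apart. The submitters' processing notes name mm10, a mouse build, which the pig identifiers contradict. Aligner, counter and pig build were not given in the sources used here. Positions are printed as deposited. Other deposited columns hold the authors' group means, ratio and p-value, and gene length. Columns carry group, animal code and sex, and were assigned to groups only. Whether libraries are separate animals rests on these codes.

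Genes entered the test when 5 or more libraries exceeded 0.5 RPKM. Their log2(RPKM + 0.5), a scale that understates differences of low genes, went into limma 3.58.1 (R 4.3.3, trend = TRUE). Adjustment over all genes tested followed Benjamini and Hochberg, with calls at 0.05. Correlations used 100000 permutations in Python 3.11.15 with numpy 2.4.6, two-sided, and exact enumeration for 1,25 NP alone. The nearest coding gene is the protein_coding row with the smallest gap by start and end. Both tests were checked on simulated data. The rows and lists were chosen with earlier results of these data known. Named are the 10 highest rows, the 5 smallest p-values per direction, the 6 highest and 3 lowest r, rows with a symbol, and 2 on either side of the threshold. Of these, 1 neighbour pair is not reported here. Alternatives were pseudocounts of 0.1 and 1, other filters, median-of-ratios scaling, voom on recovered reads, array weights, sex as covariate, and each library left out. Symbols came from a table of identifiers and RefSeq annotation. Figures were drawn with matplotlib 3.10.9.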

Additional observations from a re-analysis of the deposited data

Results flagged for a closer look

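Of the highest and lowest values in 88 groups (44 named rows, 2 groups each), 7 lay far from the rest of their group. Chance gives such a flag in about 1 of 20 groups. In 1,25 NP, library P28 was the low one for 3 rows: ENSSSCG00000048856 at 557 RPKM, where the other 7 had 2571 to 4352, ENSSSCG00000042402 at 0.935 RPKM, where they had 2.93 to 4.27, and ENSSSCG00000043175 at 5.79 RPKM, where they had 15.7 to 29.2. Library P31 was the high one for ENSSSCG00000044913, at 389 RPKM beside 113 to 182, and the low one for the NDUFA7 row ENSSSCG00000041220, at 3.81 RPKM beside 5.01 to 5.72. In vehicle, library P17 was high for ENSSSCG00000043969, at 4.53 RPKM beside 3.12 to 3.35, and library P16 was low for ENSSSCG00000047948, at 1.05 RPKM beside 2.31 to 2.97.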

How the results depend on the processing

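No paired analysis was possible because the columns carry no replicate number. In 21 alternatives 0 of the 231 rows were called, and 0 genes in all except 1 gene without vehicle library P17. limma voom on the recovered reads called 0 genes and left 33 rows lower and 1 higher at an unadjusted p under 0.05, where 3.68% and 0.631% of all genes were. The 10 named rows with the smallest p kept the direction of their difference in each alternative that tested them. They were chosen for that difference in these same libraries, so the kept direction describes them and adds no support. The median difference ran from -0.23 to -0.08. The rows lower at an unadjusted p under 0.05 numbered 22 to 36 with 1 library left out (2.02% to 8.75% of all genes) and 38 with array weights (8.25% of all genes). The higher ones numbered 0 to 7 with 1 library left out, 2 with median-of-ratios scaling, 9 with array weights (8.06% of all genes) and 2 with sex as a covariate; over all genes the share higher ran from 0.268% to 6.43% with 1 library left out, and was 3.31% and 0.61% with the scaling and the covariate. The median r was 0.45 with median-of-ratios scaling and 0.37 without the 2 farthest libraries. Called pairs numbered 40 over 1,25 NP alone and 34 without the 2 farthest libraries, against 83. With a mean of at least 1 or 5 RPKM as the rule there were 463 or 72 rows. The cause of these shifts was not tested. The median standard error of 0.32 limits what the comparison of groups can show.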
